A study of Mus musculus with 16 samples.

Results

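Whether the response of the mouse lung to inhaled house dust mite extract (HDM) depended on the very low density lipoprotein receptor was measured as an interaction. For each gene, the log2 change from saline to HDM in wild-type (WT) lungs was subtracted from the same change in lungs of Vldlr knockout (KO) mice. A positive interaction therefore means a higher HDM change in KO, whether KO rose more, WT fell more, or both. The contrast was computed for every gene with a probe set of 1 gene symbol, which were 19938 genes of 19938 in the series, and no measured value was used to choose them. Of these, 160 (0.802%) passed at an adjusted p under 0.05, 71 (0.356%) with a higher and 89 (0.446%) with a lower HDM change in KO.

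RNA of whole lungs was hybridised to 16 Affymetrix arrays that cover whole transcripts, 4 arrays for each of 4 groups. The groups were WT mice of the strain B6129SF2/J given saline, the same strain given HDM, Vldlr-/- mice given saline, and Vldlr-/- mice given HDM. Over 6 weeks, mice received 10 µl intranasally on 5 days per week, with 25 µg of HDM or saline alone. The labels call the arrays of a group biological replicates but give no strain for the KO mice, no age, and no number of animals behind an RNA sample, so p-values cover the spread among these samples alone. Without a strain for the KO mice, loss of the receptor and a difference in strain background cannot be told apart. Levels are log2 values, and levels of different genes are not comparable with each other. In whole tissue, fewer cells of a type and less RNA per cell cannot be told apart.

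HDM holds proteases and microbial products that act on the airway epithelium, and repeated inhalation drives a type 2 response: epithelial and T cell cytokines, eotaxins that draw eosinophils, alternatively activated macrophages, mucus and matrix deposition. The very low density lipoprotein receptor is a membrane receptor of the LDL receptor family that binds apolipoprotein E, reelin and other ligands. Alternatively activated macrophages are known for Arg1, chitinase-like proteins and eotaxin-2, which interleukins 4 and 13 induce through the transcription factor Stat6.

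Vldlr itself lay between 9.40 and 9.91 on the 8 KO arrays and between 10.27 and 10.92 on the 8 WT arrays, so the genotypes did not overlap. Its own interaction was -0.17 (SE 0.16, n = 4 per group, limma adjusted p = 0.655). Array by array correlations ran from 0.9784 to 0.9972. Lung markers were high on all arrays, as in the mean of the 10 alveolar type 2 genes, which lay between 12.60 and 12.93. WT saline 2 and 3 stood apart from WT saline 1 and 4 in several type 2 genes: Rnase2a was 11.47 and 11.22 on the former and 8.54 and 9.68 on the latter. KO HDM 4 had the lowest level of its group in 10 of the 12 genes that the rule for the largest rises named among those that passed.

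The calls depended on those arrays and on others. Without WT saline 2 and 3, 12 of the 160 genes passed and no other gene did. All 160 kept the sign of their interaction, but they were chosen by it on these same arrays, so this is no separate support. The median SE over all genes went from 0.10 to 0.12. No other pair of arrays was left out, so the loss cannot be set apart from that of a smaller group. Without KO HDM 4, 1019 genes passed, the 160 among them. Leaving out 1 array at a time gave between 41 (without WT saline 3) and 1019 calls. Counts near the lowest also came without WT HDM 4 (42), KO saline 4 (45) or KO saline 3 (49). Of the 160 genes, 35, 22 higher and 13 lower, passed in all 16 of the fits that left out 1 array. Of the 61 genes that passed and are named by the rule or after their values were seen, 25 passed in all 16 fits. The other 36 each lost their call without WT HDM 4, and 34 of them also without WT saline 3, with a highest adjusted p over the 16 fits of between 0.0518 and 0.105. The 25 were Rnase2a, Ccl24, Cd209e, Hspa1a, Tarm1, Ocstamp, Rnase2b, Hal, Dbp, Cyp2e1, Klhl38, Fam107a, Il17rb, Ccr8, Tnc, Lamp3, Msln, Meg3, Dlk1, Mir380, DQ267102, Fmod, Adamts9, Tfpi2 and Klhl13. The 12 genes that still passed with WT saline 2 and 3 left out were Adamts9, Armcx2, Cd209e, Fam107a, G530011O06Rik, Hal, Hspa1a, Klhl13, Klhl38, Mir380, Msln and Tfpi2.

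Among the 71 genes with a higher HDM change in KO, the median change was -0.15 in WT and 0.57 in KO. The KO HDM group had the highest mean of the 4 groups in 59 of them and WT saline in the other 12. In 46 the WT change was negative and the KO change positive, in 20 both were positive and in 5 both negative. Among the 89 genes with a lower HDM change in KO, the median change was 0.38 in WT and -0.23 in KO. WT HDM had the highest mean in 71 of them and KO saline in the other 18, while KO HDM had the lowest in 57. In 69 the WT change was positive and the KO change negative. The 160 genes were chosen by this contrast, so these patterns follow in part from the choice. Over all 19938 genes, the highest mean was KO HDM in 4318, WT saline in 6690, WT HDM in 4425 and KO saline in 4505. KO HDM had the lowest mean in 5348. The WT change was negative and the KO change positive in 3347 of all genes, and the reverse held in 2835. Both changes were positive in 4741 and both negative in 9015. Of the 160 genes, 18 passed in both genotypes with opposite signs, not counting predicted genes, clones, small RNAs and receptor segments. In comparison, 3505 genes (17.6%) passed for HDM against saline in WT and 1763 (8.84%) in KO. KO and WT differed in 46 genes (0.231%) under saline and in 2327 (11.7%) under HDM. These comparisons share arrays with the interaction. The 160 genes had a median absolute interaction of 0.67, the smallest being 0.32, and 27 (0.135% of all genes) reached 1, a 2-fold difference in response, of which 17 were higher. Over all genes, passed or not, 58.1% had a positive and 41.9% a negative interaction.

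**Figure D1:**
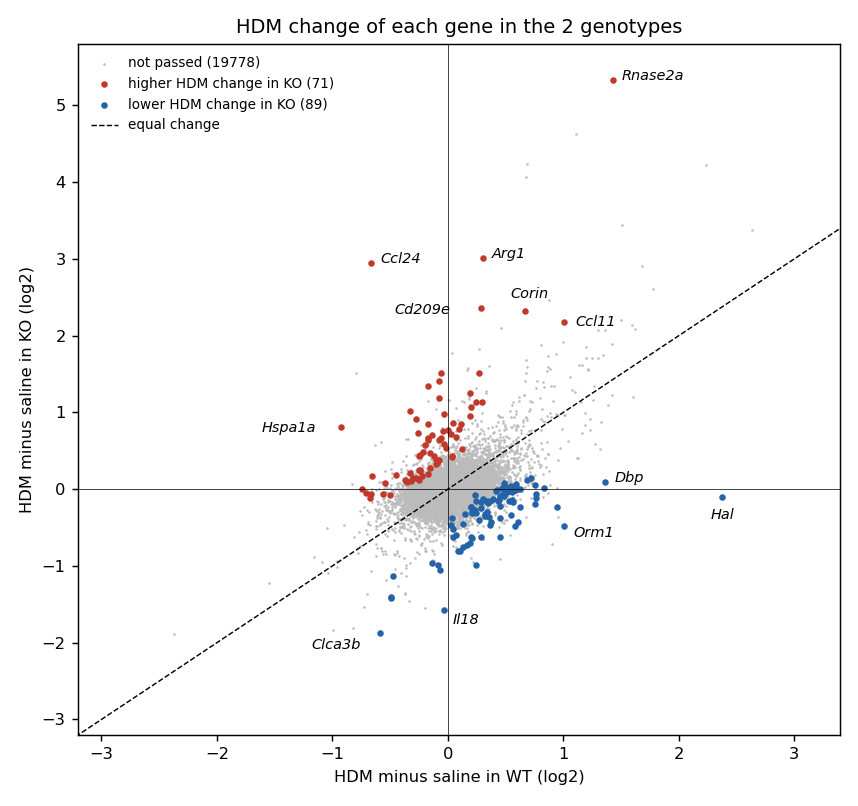
HDM minus saline in WT (x axis, log2) against HDM minus saline in KO (y axis, log2), 1 point per gene. The dashed line marks equal change, red points are the 71 genes with a higher and blue points the 89 with a lower HDM change in KO, and grey points are the 19778 that did not pass. Of the red points, Rnase2a, Ccl24 and Arg1 lie farthest above the line, and of the blue points Hal lies farthest below it.

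The 44 gene lists examined were chosen with earlier results of these data known, so their ranks and shares are a description. Type 2 chemokines and their receptors had the highest median interaction of these lists. All 9 measured members had a positive interaction (median 0.82, against 0.03 over all genes), and 3 of the 9 passed higher (0.356% of all genes did). Ccl24, the eotaxin-2 made by macrophages, had levels of 7.95, 9.06, 9.26 and 8.03 in WT saline replicates 1 to 4 and of 7.80, 7.88, 8.21 and 7.76 in WT HDM. In KO saline its levels were 8.06, 7.74, 7.78 and 7.69, and in KO HDM 10.70, 10.85, 12.18 and 9.30. All 4 KO HDM arrays lay above the other 12, although KO HDM 4 exceeded WT saline 3 by little. Ccl24 rose 7.69-fold in KO (adjusted p = 0.000261), its change in WT was -0.66 and did not pass, and the interaction was 3.61 (SE 0.58, n = 4 per group, limma adjusted p = 0.01).

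Ccl11, the eotaxin-1 of structural cells, rose in both genotypes. Levels were 8.87, 9.58, 9.44 and 9.41 on the WT saline arrays and 9.85, 10.10, 10.81 and 10.56 on the WT HDM arrays. KO arrays had 8.94, 9.04, 8.86 and 9.05 under saline and 10.72, 11.19, 11.42 and 11.27 under HDM. The treated arrays lay above the saline arrays in each genotype, and KO HDM 1 lay within the range of the WT HDM arrays. The rise was 2.01-fold in WT and 4.52-fold in KO, with an interaction of 1.17 (SE 0.26, adjusted p = 0.0488). It passed in 4 of the 16 fits that left out 1 array, and the call ended without WT saline 2, 3 or 4, any KO saline array, KO HDM 2 or 3, or WT HDM 1, 2 or 4 (highest adjusted p = 0.0976). Ccr8, a chemokine receptor of type 2 T cells, lay between 7.49 and 7.96 on the 8 WT arrays and between 7.56 and 7.83 on the KO saline arrays, against 8.67, 8.61, 9.08 and 8.40 on the KO HDM arrays. No other group reached the KO HDM range, and the interaction was 1.02 (SE 0.17, adjusted p = 0.0147).

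The Ccr4 ligands Ccl17 and Ccl22 did not pass, and whether they differed from the eotaxins was not tested. Ccl17 rose by 0.94 in WT and by 0.98 in KO, with an interaction of 0.04 (95% interval -0.50 to 0.59). Ccl22 rose 2-fold in KO (adjusted p = 0.00205), its change in WT was 0.29, and the interaction of 0.71 did not pass (adjusted p = 0.18), although it did without KO HDM 4 (adjusted p = 0.0271). Ccr3, the eotaxin receptor of eosinophils, rose by 1.78 in WT and by 2.60 in KO, and its interaction of 0.82 did not pass either (adjusted p = 0.132). On the 14 arrays other than WT saline 2 and 3, 8 of the 9 chemokine genes had a positive interaction (median 0.62) and 0 passed. With the score of circadian clock genes described further on as a covariate, the list's median was 0.44 and 0 passed.

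Of 13 type 2 cytokine and receptor genes, 11 had a positive interaction (median 0.25) and 1 passed. Il17rb, a subunit of the interleukin 25 receptor, lay between 8.18 and 8.41 on the WT arrays and between 8.09 and 8.29 on the KO saline arrays. It was 9.12, 8.73, 9.19 and 8.85 on the KO HDM arrays, above all others, with an interaction of 0.68 (SE 0.12, adjusted p = 0.0175). The decoy receptor Il13ra2 rose by 1.17 in KO (adjusted p = 0.00157), changed by 0.01 in WT, and had an interaction of 1.16 (adjusted p = 0.0624). Among the cytokines themselves, named here after their values were seen, Il4 had an interaction of 0.25 (adjusted p = 0.324), Il5 of 0.32 (adjusted p = 0.384) and Il13 of 0.33 (adjusted p = 0.19). When WT saline 2 and 3 were left out, 11 of the 13 were positive and 0 passed.

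**Figure D2:**
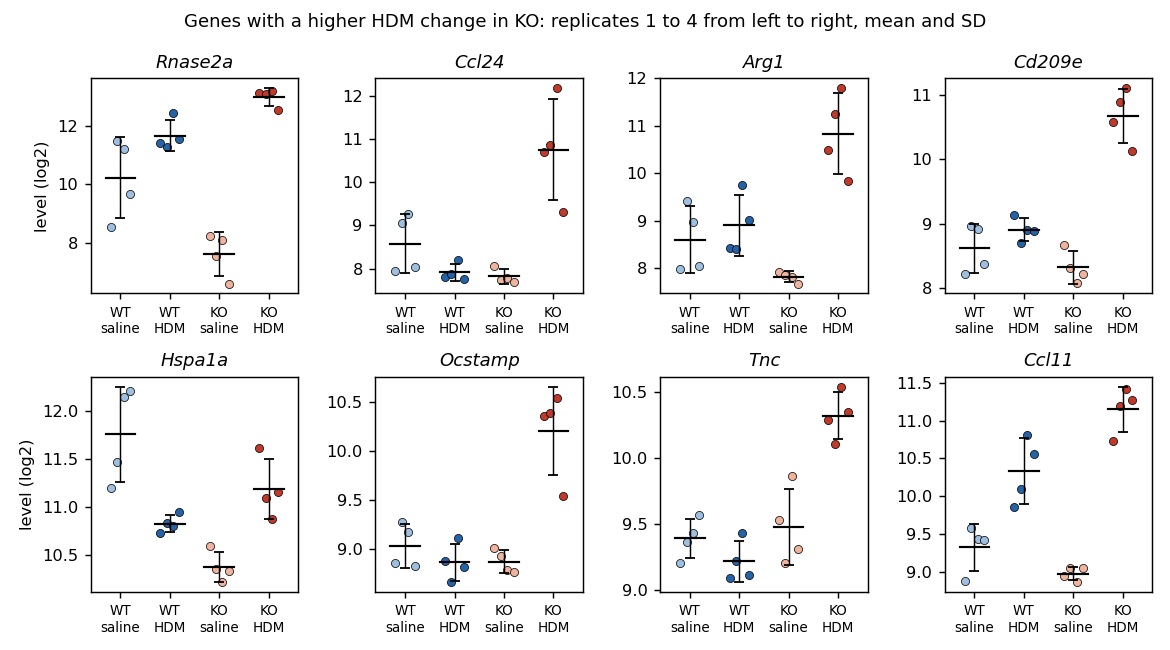
Log2 level (y axis) on each array, by group (x axis), of 8 genes with a higher HDM change in KO. Points are arrays in replicate order 1 to 4, and bars are the group mean and SD. The KO HDM arrays are the highest of the 4 groups in Ccl24, Arg1, Cd209e, Ocstamp and Tnc, while in Hspa1a WT saline has the highest mean and its arrays overlap those of KO HDM.

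Single genes known from macrophages and dendritic cells held several of the largest interactions, but most members of the lists of such cells did not pass. Of 9 macrophage fusion and osteoclast-like genes 1 passed (median 0.35), and of 9 monocyte and interstitial macrophage genes 0 passed (median 0.05). Of 16 dendritic cell genes 1 passed higher and 1 lower (median 0.22), and 8 alveolar macrophage genes had a median of -0.44. Of all genes, 0.802% passed. Arg1, the arginase of alternatively activated macrophages, was 7.97, 9.41, 8.96 and 8.05 on the WT saline arrays and 8.42, 8.41, 9.75 and 9.02 on the WT HDM arrays. It was 7.93, 7.86, 7.82 and 7.67 on the KO saline arrays and 10.48, 11.24, 11.79 and 9.83 on the KO HDM arrays. KO HDM arrays were the 4 highest, with KO HDM 4 just above WT HDM 3. Arg1 rose 8.1-fold in KO (adjusted p = 0.000106), its change in WT was 0.30, and the interaction was 2.71 (SE 0.54, adjusted p = 0.0289). It passed in 8 of the 16 fits that left out 1 array, with interactions from 2.40 to 3.05. It did not pass without WT saline 2 or 3, KO saline 2, 3 or 4, KO HDM 2, or WT HDM 2 or 4 (highest adjusted p = 0.0681).

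Cd209e encodes a C-type lectin of the DC-SIGN family of antigen-presenting cells. Its levels were 8.22, 8.96, 8.92 and 8.37 on the WT saline arrays and 9.13, 8.69, 8.90 and 8.89 on the WT HDM arrays. KO levels were 8.67, 8.30, 8.08 and 8.22 under saline and 10.58, 10.89, 11.11 and 10.13 under HDM. The lowest KO HDM array lay above the highest of the other 12. The interaction was 2.07 (SE 0.28, adjusted p = 0.00371), and it passed in all 16 fits that left out 1 array. Leaving out both WT saline 2 and WT saline 3 gave 1.75 (adjusted p = 0.0313).

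Tarm1, a receptor of myeloid cells, had 10.37, 10.19, 11.12 and 9.83 on the KO HDM arrays, against 8.68 to 9.36 on the other 12, with an interaction of 1.57 (SE 0.27, adjusted p = 0.0173). Ocstamp, which osteoclasts and multinucleated macrophages need for cell fusion, had 10.36, 10.39, 10.54 and 9.54 on the KO HDM arrays and 8.66 to 9.27 elsewhere. Its interaction was 1.51 (SE 0.24, adjusted p = 0.00988). In both genes the KO HDM arrays did not overlap the rest, and the WT change of -0.06 and -0.17 did not pass.

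Of 16 alternative macrophage activation genes, 2 passed higher and 13 had a positive interaction (median 0.38). The other gene that passed, Rnase2a, belongs to the eosinophil-associated ribonucleases, a family of close copies in the mouse whose probes can share signal. Rnase2a was 8.54, 11.47, 11.22 and 9.68 on the WT saline arrays and 11.40, 11.27, 12.42 and 11.54 on the WT HDM arrays. It was 8.26, 7.55, 8.09 and 6.63 on the KO saline arrays and 13.10, 13.07, 13.19 and 12.52 on the KO HDM arrays. The KO saline arrays were the lowest of all and the KO HDM arrays the highest, and 2 of the WT saline arrays lay near the WT HDM range. Rnase2a rose 40.4-fold in KO (adjusted p = 5.4e-06) and its 2.7-fold change in WT did not pass (adjusted p = 0.0536). KO was lower than WT under saline (-2.59, adjusted p = 0.0322), while under HDM the difference of 1.31 did not pass (adjusted p = 0.0935). The interaction was 3.90 (SE 0.70, adjusted p = 0.0182). Leaving out both WT saline 2 and WT saline 3 gave 2.79 (adjusted p = 0.0817).

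The related Ear6 and Rnase2b also passed. Ear6 was 10.11, 10.12, 10.79 and 9.39 on the KO HDM arrays and between 8.34 and 8.98 on the other 12, with an interaction of 1.48 (SE 0.29, adjusted p = 0.0277). Rnase2b was 8.67, 7.77, 8.27 and 7.74 on the KO HDM arrays and between 6.87 and 7.46 elsewhere, with an interaction of 1.26 (SE 0.22, adjusted p = 0.0175). The chitinase-like Chil3, another marker of the same macrophages, rose in both genotypes, by 1.26 in WT and by 1.35 in KO, and its interaction was 0.09 (95% interval -0.45 to 0.62).

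Of 7 measured eosinophil markers, 6 had a positive interaction (median 0.42) and 1 passed, the Ear6 just described. With the clock score as a covariate the list's median was 0.05 and 0 passed. The mean level of the 7 lay between 8.27 and 8.52 on the WT saline arrays, 8.57 and 8.93 on the WT HDM arrays, 8.28 and 8.37 on the KO saline arrays and 8.89 and 9.49 on the KO HDM arrays. The granule protein gene Prg2 had an interaction of 0.53 (adjusted p = 0.125). Of 13 mast cell and basophil markers, 11 had a positive interaction (median 0.30) and 0 passed. Among them, the proteases Mcpt1 (3.55, SE 0.86, adjusted p = 0.0588) and Mcpt2 (3.52, SE 0.85, adjusted p = 0.0583), which are near copies of each other, had interactions near that of Ccl24 but did not pass. Mcpt1 was 6.42, 8.74, 8.09 and 7.45 on the WT saline arrays and 7.24, 6.83, 9.56 and 9.81 on the WT HDM arrays, a wide spread in both groups, while the KO HDM arrays lay at 9.62, 11.71, 11.24 and 10.58. The part of such cells in the differences of Ccl24, Arg1 and Rnase2a was not tested.

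The promoters of Cd209e, whose interaction passed in all 16 fits that left out 1 array, and of Il18, described with the falls, are printed as an example from each direction, chosen after their values and sequences were seen. Both hold the palindrome of TTC and GAA with any 4 bases between, the form to which Stat6 is known to bind, here in capitals. The 120 bases (RefSeq, GRCm38.p6; the labels name no build for the array annotation) are chr8:3854287-3854406 on the minus strand for Cd209e and chr9:50554580-50554699 on the plus strand for Il18.
Cd209e: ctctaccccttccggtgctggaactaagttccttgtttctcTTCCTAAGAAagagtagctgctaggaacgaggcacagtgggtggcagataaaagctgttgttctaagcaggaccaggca
Il18: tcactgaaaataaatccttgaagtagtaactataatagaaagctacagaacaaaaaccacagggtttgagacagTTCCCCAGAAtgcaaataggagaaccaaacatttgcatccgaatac
The match starts 79 bases before the gene start in Cd209e and 46 before it in Il18. Over windows of 300 bases (250 before to 50 after the start), read on both strands, the letters occurred in 7.29% of the 15614 genes with a promoter sequence. They occurred in 4 of the 50 such genes with a higher HDM change in KO (8.0%) and in 4 of the 64 with a lower one (6.25%). A match is a description of the letters, and the shares lay near that of all genes.

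Of 17 measured genes of the extracellular matrix, 5 passed higher (0.356% of all genes did): Tnc, Eln, Thbs1, Col3a1 and Col1a1. The other 12 did not pass, and 15 of the 17 had a positive interaction (median 0.37), as did 58.1% of all genes. Tnc, the tenascin C of injured and remodelling tissue, was 9.20, 9.36, 9.43 and 9.56 on the WT saline arrays and 9.09, 9.22, 9.43 and 9.11 on the WT HDM arrays. It was 9.53, 9.20, 9.86 and 9.31 on the KO saline arrays and 10.29, 10.10, 10.54 and 10.35 on the KO HDM arrays. KO HDM held the 4 highest arrays, and the other groups overlapped. Tnc rose by 0.85 in KO (adjusted p = 0.000462), its change in WT was -0.18, and the interaction was 1.02 (SE 0.18, adjusted p = 0.0167).

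Eln, the elastin of vessel walls and alveoli, was 11.93, 11.48, 11.59 and 11.98 on the KO HDM arrays, 10.79 to 11.01 on the WT HDM arrays and 11.06 to 11.44 on the saline arrays. Its KO HDM and WT HDM arrays lay on opposite sides of all saline arrays, and the interaction was 0.69 (SE 0.14, adjusted p = 0.0353). Thbs1, thrombospondin 1, had an interaction of 0.68 (SE 0.13, adjusted p = 0.0232). The chains of the fibrillar collagens I and III had interactions of 0.43 for Col3a1 (SE 0.09, adjusted p = 0.0353) and 0.42 for Col1a1 (SE 0.08, adjusted p = 0.0253). Outside the list, and named after their values were seen, the beaded-filament collagens Col6a2 (0.55) and Col6a3 (0.50), the fibril-associated Col14a1 (0.77), and the collagen-binding Fmod (0.77) passed higher, while decorin, Dcn, passed lower (-0.56).

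Timp1, an inhibitor of matrix proteases also named after its values were seen, rose by 1.78 in KO (adjusted p = 0.0059) with an interaction of 1.75 that did not pass (SE 0.53, adjusted p = 0.117). After WT saline 2 and 3 were left out, 16 of the 17 matrix genes had a positive interaction with a median of 0.38, and 0 passed. The median was 0.28 with the clock score as a covariate, and again 0 passed. Smooth muscle markers had 9 of 10 positive interactions (median 0.15) and 0 passed.

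Other genes with large positive interactions came from the rule for the largest changes. Corin, a protease known for activating natriuretic peptides in the heart, was 10.84, 11.31, 11.67 and 10.73 on the KO HDM arrays, 9.33 to 10.76 on the WT HDM arrays and 8.70 to 9.66 on the saline arrays. The 2 HDM groups overlapped by 1 array, and the interaction was 1.66 (SE 0.34, adjusted p = 0.0353). Fetub, a fetuin known as a protease inhibitor of the liver, had an interaction of 1.25 (SE 0.25, adjusted p = 0.0286). Itln1, the lectin intelectin 1 of mucous cells, had 0.89 (SE 0.19, adjusted p = 0.0398) and was the 1 of 15 mucous cell genes that passed. The list's median interaction was 0.06.

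A few genes known from arginine metabolism were named after their values were seen, because they passed, and other genes of that metabolism were not counted. Nos2, the inducible nitric oxide synthase that competes with arginase for arginine, rose by 0.64 in KO and had an interaction of 0.81 (SE 0.18, adjusted p = 0.0424). The arginine transporter Slc7a1 fell by 0.55 in WT, its change in KO was 0.08, and the interaction was 0.63 (SE 0.14, adjusted p = 0.0476). Ddah2, known for the breakdown of methylarginines, fell by 0.50 in WT, had a change of -0.08 in KO, and an interaction of 0.42 (SE 0.09, adjusted p = 0.0367). None of these genes passed without WT saline 2 and 3.

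The heat shock gene Hspa1a moved in opposite directions. Its level was 11.21, 11.47, 12.15 and 12.21 on the WT saline arrays and 10.74, 10.84, 10.80 and 10.95 on the WT HDM arrays. The KO arrays had 10.60, 10.35, 10.22 and 10.34 under saline and 11.62, 11.10, 10.88 and 11.16 under HDM. The WT saline arrays were high and the KO saline arrays low, with no overlap between them (-1.38, adjusted p = 0.00428). Under HDM the difference of KO from WT was 0.36 and did not pass (adjusted p = 0.231). Hspa1a fell by 0.93 in WT (adjusted p = 0.00392) and rose by 0.81 in KO (adjusted p = 0.0107), and the interaction was 1.74 (SE 0.26, adjusted p = 0.00775). Hspa1a has a near-identical neighbour, Hspa1b, so the signal may include both. Of 7 measured heat shock genes it was the 1 that passed, and 4 of 7 had a positive interaction. Dnajb1, a co-chaperone, fell by 0.62 in WT (adjusted p = 0.00987) with an interaction of 0.60 (adjusted p = 0.162). Another co-chaperone, Dnaja1, named after its values were seen, fell by 0.66 in WT and passed with an interaction of 0.60 (SE 0.13, adjusted p = 0.0398), and its second probe set gave 0.44.

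A stretch of chromosome 12 stood out after the values were seen. The imprinted region from Dlk1 to Dio3 carries the non-coding RNA Meg3, small nucleolar RNAs and a large cluster of microRNAs, which are transcribed from the maternal chromosome. Of its 48 measured genes, 6 passed (12.5%, against 0.802% of all genes), all higher: Dlk1, Meg3, Mir380, Mir323, Mir329 and DQ267102. A positive interaction was found in 44 of the 48, with a median of 0.19, against 58.1% of all genes. The region was singled out because of these calls, so they are a description.

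The mature microRNAs of the 3 hairpins that passed are shown because their seeds decide which transcripts they can pair with. The seed, bases 2 to 8, is in capitals (RefSeq, GRCm38.p6, plus strand). The 3 hairpins lie within a short interval, with Mir380 from chr12:109711806-109711863, Mir323 from chr12:109712523-109712578 and Mir329 from chr12:109713503-109713562, measured from the first base of the 5p arm to the last base of the 3p arm.
mmu-miR-380-5p: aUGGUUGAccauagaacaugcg
mmu-miR-380-3p: uAUGUAGUaugguccacaucuu
mmu-miR-323-5p: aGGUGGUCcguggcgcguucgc
mmu-miR-323-3p: cACAUUACacggucgaccucu
mmu-miR-329-5p: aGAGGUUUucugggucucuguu
mmu-miR-329-3p: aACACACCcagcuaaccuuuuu
The 6 arms had 6 different seeds. Whether the probe sets of these genes read the hairpin, a longer precursor or a mature arm was not tested.

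Meg3 was 9.12, 9.23, 9.13 and 8.91 on the WT saline arrays and 9.12, 9.34, 9.31 and 9.41 on the WT HDM arrays. It was 9.17, 9.23, 9.35 and 9.04 on the KO saline arrays and 10.08, 10.09, 10.38 and 10.53 on the KO HDM arrays. KO HDM stood above the other groups, which overlapped each other. Meg3 rose by 1.07 in KO (adjusted p = 5.57e-06), its change in WT was 0.20, and the interaction was 0.88 (SE 0.14, adjusted p = 0.01). Dlk1, a Notch-like membrane protein of progenitor cells expressed from the paternal chromosome, rose by 0.48 in KO, and its WT change of -0.22 did not pass. Its interaction was 0.70 (SE 0.11, adjusted p = 0.00988).

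Mir380 had the largest interaction of the region, 1.19 (SE 0.16, adjusted p = 0.00392). It was 6.67, 6.88, 6.65 and 6.64 on the KO HDM arrays, 5.16 to 5.78 on the WT HDM arrays and 5.50 to 5.95 on the saline arrays. Levels in KO HDM lay above all others, at low signal throughout. Of 40 measured microRNA genes of the region, Mir380, Mir329 (0.77) and Mir323 (0.63) passed, and the small nucleolar RNA DQ267102 passed with 0.99. With both WT saline 2 and 3 left out, 46 of the 48 genes had a positive interaction, and Mir380 alone passed. With the clock score as a covariate 35 of the 48 were positive (median 0.11) and 1 passed. Among genes above the 25th percentile of level, 16 of the region remained, of which 14 were positive and 3 passed.

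**Figure D3:**
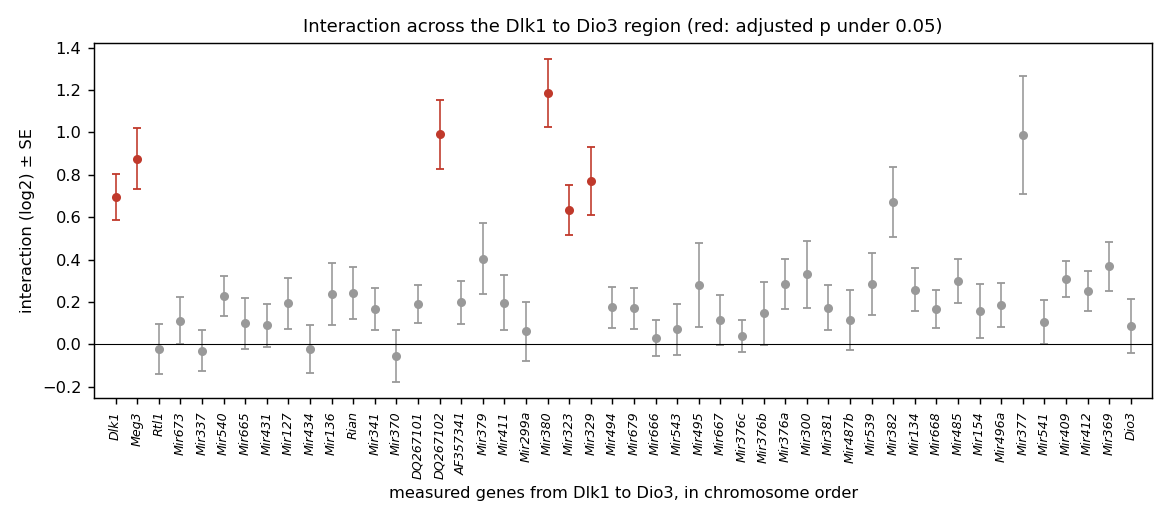
Interaction (y axis, log2, with its SE) of the 48 measured genes from Dlk1 to Dio3 in chromosome order (x axis). Red points passed at an adjusted p under 0.05. Points lie above 0 in 44 of the 48 genes, and the 6 that passed lie between 0.63 and 1.19.

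Hal had the lowest interaction of all genes. Histidine ammonia-lyase, which it encodes, starts the breakdown of histidine, the precursor of histamine and of urocanate. Hal was 8.14, 9.39, 9.31 and 7.88 on the WT saline arrays and 10.78, 10.55, 11.79 and 11.09 on the WT HDM arrays. In KO it lay between 7.81 and 8.42 under saline and between 7.84 and 8.12 under HDM. The WT HDM arrays lay above all others, and the 2 KO groups overlapped. Hal rose 5.18-fold in WT (adjusted p = 0.000161), its change in KO was -0.11 (adjusted p = 0.863), and the interaction was -2.48 (SE 0.42, adjusted p = 0.0126). Here WT saline 2 and 3 lay toward the HDM level, and without them the interaction was -3.15 (adjusted p = 0.000728).

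Il18 is the gene of an interleukin 1 family cytokine of epithelium and macrophages. It was 9.83, 9.31, 9.57 and 9.47 on the WT saline arrays and 10.14, 9.58, 8.64 and 9.68 on the WT HDM arrays. In KO it was 10.11, 9.96, 10.50 and 10.27 under saline and 8.69, 8.79, 8.48 and 8.60 under HDM. WT HDM 3 lay within the KO HDM range and the other WT HDM arrays above it. Il18 fell by 1.57 in KO (adjusted p = 0.000222), its change in WT was -0.03, and the interaction was -1.54 (SE 0.30, adjusted p = 0.0289). It passed in 6 of the 16 fits that left out 1 array, and it did not pass without WT saline 2, 3 or 4, KO saline 3 or 4, KO HDM 1, 2 or 3, or WT HDM 2 or 4 (highest adjusted p = 0.0769). It was the 1 of 13 genes of the Il18 and Il1 pathway that passed, and 8 of the 13 had a positive interaction.

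The lists of ciliated, club and secretory, and alveolar cell genes had negative median interactions, with few single calls (0.446% of all genes passed lower). Other epithelial lists did not: the median was 0.06 for mucous cell genes and 0.02 for squamous and tracheal genes. None of the 12 ciliated cell genes had a positive interaction (median -0.47) and 0 passed. In 12 club and secretory cell genes, 1 was positive (median -0.37) and 1 passed, and in 10 alveolar type 2 genes 0 were positive (median -0.28) and 2 passed. The mean level of the ciliated genes lay between 9.66 and 9.80 on the WT saline arrays, 9.62 and 10.07 on the WT HDM arrays, 9.80 and 9.99 on the KO saline arrays and 9.23 and 9.59 on the KO HDM arrays. Every KO HDM array was thus below every other array.

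Among ciliated genes, Rsph4a of the radial spokes had -1.14 (adjusted p = 0.0565) and Ccdc39 of the inner arm assembly had -0.96 (adjusted p = 0.056). Sntn, sentan of the ciliary tip, was outside the list and passed by the rule for the largest falls: it was 9.45, 10.08, 9.86 and 10.00 on the KO HDM arrays, 10.68 to 11.48 on the WT HDM arrays and 10.24 to 10.71 on the saline arrays. Its interaction was -1.07 (SE 0.22, adjusted p = 0.0367). Named after their values were seen, Meig1 (-0.88), Stk33 (-0.91) and Hoatz (-0.82), which are known from sperm or motile cilia, also passed. Without KO HDM 4, 5 of the 12 listed ciliated genes passed lower, and without WT saline 2 and 3 none passed (median -0.46). With the clock score as a covariate 0 passed and the median was -0.22.

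Scgb3a2, a secretoglobin of club cells, was 9.88, 9.86, 9.59 and 9.92 on the WT saline arrays and 9.67, 10.06, 9.47 and 9.76 under HDM in WT. KO levels lay between 9.98 and 10.21 under saline and were 8.92, 9.19, 8.75 and 9.51 under HDM. KO HDM 1, 2 and 3 lay below all other arrays, and KO HDM 4 lay within the WT HDM range. Scgb3a2 fell by 1.05 in KO (adjusted p = 0.000167) and its change in WT was -0.07, with an interaction of -0.98 (SE 0.20, adjusted p = 0.0309). Cyp2e1, a cytochrome P450 of liver and lung, fell by 0.99 in KO, its change in WT was 0.24, and the interaction was -1.23 (SE 0.22, adjusted p = 0.0184). Clca3b, of a family of secreted epithelial proteins, fell by 1.87 in KO from a higher level under saline (1.03 above WT, adjusted p = 0.0443). Its interaction was -1.29 (SE 0.29, adjusted p = 0.0481), and KO minus WT under HDM was -0.26 and did not pass (adjusted p = 0.461).

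The surfactant genes rose in WT where they passed. Sftpd, the collectin surfactant protein D, was 12.40, 12.37, 12.31 and 12.48 on the WT saline arrays and 12.89, 12.90, 13.02 and 13.10 on the WT HDM arrays, and in KO it lay between 12.57 and 12.88 under saline and between 12.56 and 12.93 under HDM. The WT groups did not overlap and the KO groups did. Sftpd rose by 0.59 in WT (adjusted p = 0.000439), its change in KO was -0.01, and the interaction was -0.59 (SE 0.12, adjusted p = 0.032). Lamp3, a lamellar body protein, rose by 0.45 in WT, had a change of -0.09 in KO, and an interaction of -0.54 (SE 0.10, adjusted p = 0.0173).

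**Figure D4:**
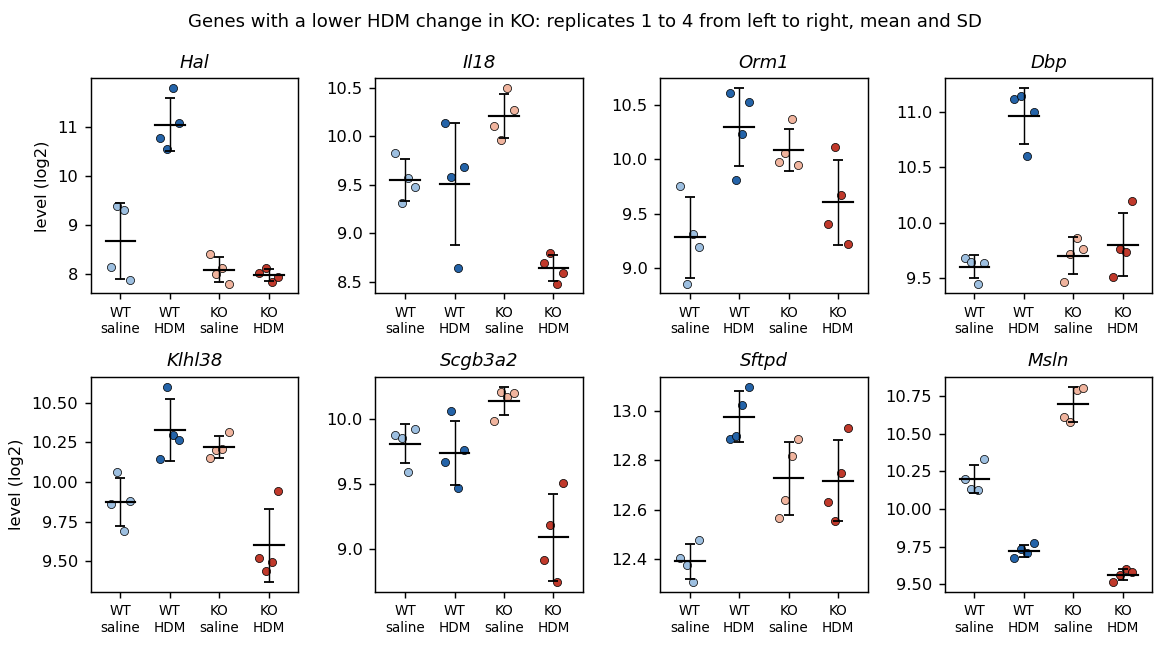
Log2 level (y axis) on each array, by group (x axis), of 8 genes with a lower HDM change in KO. Points are arrays in replicate order 1 to 4, and bars are the group mean and SD. By its mean, WT HDM is the highest group in Hal, Orm1, Dbp and Sftpd, and KO HDM the lowest in Il18, Klhl38, Scgb3a2 and Msln.

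Alveolar macrophage genes had a median interaction of -0.44, with 1 of 8 positive and 1 passed. The keratin Krt79, a marker of these cells in the mouse lung, fell by 0.96 in KO (adjusted p = 5.04e-05), its change in WT was -0.13, and the interaction was -0.83 (SE 0.16, adjusted p = 0.0244). The lipid droplet gene Cidec had a change of 0.05 in WT and fell by 0.74 in KO, and its interaction of -0.79 did not pass (adjusted p = 0.0515). Lpl, the lipoprotein lipase of the lipoprotein list, rose by 0.50 in WT, its change in KO was -0.07, and its interaction of -0.57 did not pass (adjusted p = 0.0824). Abcg1, the cholesterol exporter induced by the oxysterol receptor LXR, rose by 0.37 in WT, its change in KO was -0.15, and the interaction was -0.52 (SE 0.12, adjusted p = 0.0483). It was the 1 of 12 LXR target and fatty acid synthesis genes that passed, and 1 of the 12 had a positive interaction (median -0.16).

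Of 19 lipoprotein receptor and ligand genes, the family to which Vldlr belongs, 9 had a positive interaction (median -0.04) and 0 passed. The shared ligand Apoe had an interaction of -0.23 (95% interval -0.48 to 0.02), and Lrp8, the other reelin receptor, had 0.15 (95% interval -0.04 to 0.35). Cholesterol synthesis genes, 12 measured, had a median of -0.03 and 0 passed. At an unadjusted p under 0.05, 3120 of all genes passed the interaction.

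Acute phase and clock output genes rose in WT where they passed. Orm1, an orosomucoid, was 9.76, 8.86, 9.31 and 9.20 on the WT saline arrays and 10.60, 9.81, 10.23 and 10.52 on the WT HDM arrays. KO arrays had 9.97, 10.05, 10.37 and 9.95 under saline and 9.40, 10.11, 9.67 and 9.23 under HDM. The KO saline arrays lay with the WT HDM arrays, and the KO HDM arrays spread over both ranges. The interaction was -1.49 (SE 0.29, adjusted p = 0.0247), and Lrg1, a secreted acute phase protein named after its values were seen, had -0.83 (SE 0.18, adjusted p = 0.0399). Of 9 acute phase genes 1 passed and 2 were positive (median -0.25).

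Dbp, a transcription factor whose level follows the circadian clock, lay between 10.60 and 11.14 on the WT HDM arrays and between 9.45 and 10.19 on the other 12. WT HDM did not overlap any other group. Dbp rose 2.58-fold in WT (adjusted p = 3.54e-05), its change in KO was 0.10, and the interaction was -1.27 (SE 0.19, adjusted p = 0.00744). The related Tef had -0.67 (adjusted p = 0.0513). Of 16 clock and output genes 4 were positive (median -0.28) and 1 passed.

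A clock score, the mean of the 16 standardised genes, was 0.60, 1.41, -0.11 and 0.78 on the WT HDM arrays and between -0.73 and 0.23 on the other 12. The labels give no time of day for tissue collection. With the score as a covariate, all 160 genes, which were chosen on these same arrays, kept their sign. In that fit 10 genes passed, 8 of them among the 160. Those 8 were Adamts9, Cd209e, Dbp, Hal, Klhl13, Mir380, Msln and Tfpi2. The score is itself made of genes that differ between the groups, so this fit also removes part of the contrast.

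Msln had the smallest adjusted p of the genes with a lower HDM change in KO. It encodes mesothelin, a marker of the mesothelial lining of the lung surface. Msln lay between 10.13 and 10.33 on the WT saline arrays and was 9.68, 9.74, 9.71 and 9.77 under HDM in WT. KO levels lay between 10.58 and 10.80 under saline and at 9.52, 9.56, 9.6 and 9.58 under HDM. None of the 4 groups overlapped. Msln fell by 0.47 in WT (adjusted p = 0.000198) and by 1.13 in KO (adjusted p = 8.5e-09). Under saline KO was higher by 0.50 (adjusted p = 0.00272), while under HDM the difference of -0.16 did not pass (adjusted p = 0.105). The interaction was -0.66 (SE 0.09, adjusted p = 0.00371), and without WT saline 2 and 3 it also passed. All 5 mesothelial markers had a negative interaction (median -0.24) and 1 passed, and Upk3b, uroplakin 3b, had -0.39 (adjusted p = 0.149). How much lining each RNA sample held was not tested.

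Further genes moved in opposite directions and passed in both genotypes. Fam107a, a gene known to respond to glucocorticoids, was 11.50, 11.17, 11.73 and 11.44 on the WT saline arrays and 11.85, 12.16, 11.90 and 12.36 on the WT HDM arrays. In KO it was 10.88, 10.81, 10.80 and 10.88 under saline and 10.43, 10.28, 10.37 and 10.60 under HDM. The 4 groups did not overlap. Fam107a rose by 0.61 in WT (adjusted p = 0.00277) and fell by 0.42 in KO (adjusted p = 0.0264), with an interaction of -1.03 (SE 0.16, adjusted p = 0.00988). Klhl38, a kelch-family protein, rose by 0.45 in WT and fell by 0.62 in KO, with an interaction of -1.07 (SE 0.15, adjusted p = 0.00633). The membrane mucin Muc16 rose by 0.45 and fell by 0.38, with an interaction of -0.83 (SE 0.16, adjusted p = 0.0247).

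Other genes with low interactions were Chad, chondroadherin of cartilage (-0.94, SE 0.18, adjusted p = 0.0253), AB010352 (-1.17, SE 0.24, adjusted p = 0.0367) and the cross-presenting dendritic cell receptor Clec9a (-0.57, SE 0.12, adjusted p = 0.0353). Clec9a rose by 0.48 in WT, and its change in KO was -0.09. Together with Cd209e it made 1 higher and 1 lower of 16 dendritic cell genes.

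No proliferation, interferon-stimulated or B cell gene of the lists passed. All 21 proliferation genes had a positive interaction (median 0.33; median change -0.18 in WT and 0.17 in KO). Of 15 interferon-stimulated genes 14 were positive (median 0.30), with Oas3 at 0.35 (adjusted p = 0.381) and Ifit2 at -0.33 (adjusted p = 0.296). All 8 B cell genes were positive (median 0.29). With the clock score as a covariate 15 of the 21 proliferation genes (median 0.09), 12 of the 15 interferon-stimulated genes (median 0.19) and 2 of the 8 B cell genes were positive. The B cell mean spread from 9.40 to 10.42 over the WT HDM arrays alone.

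**Figure D5:**
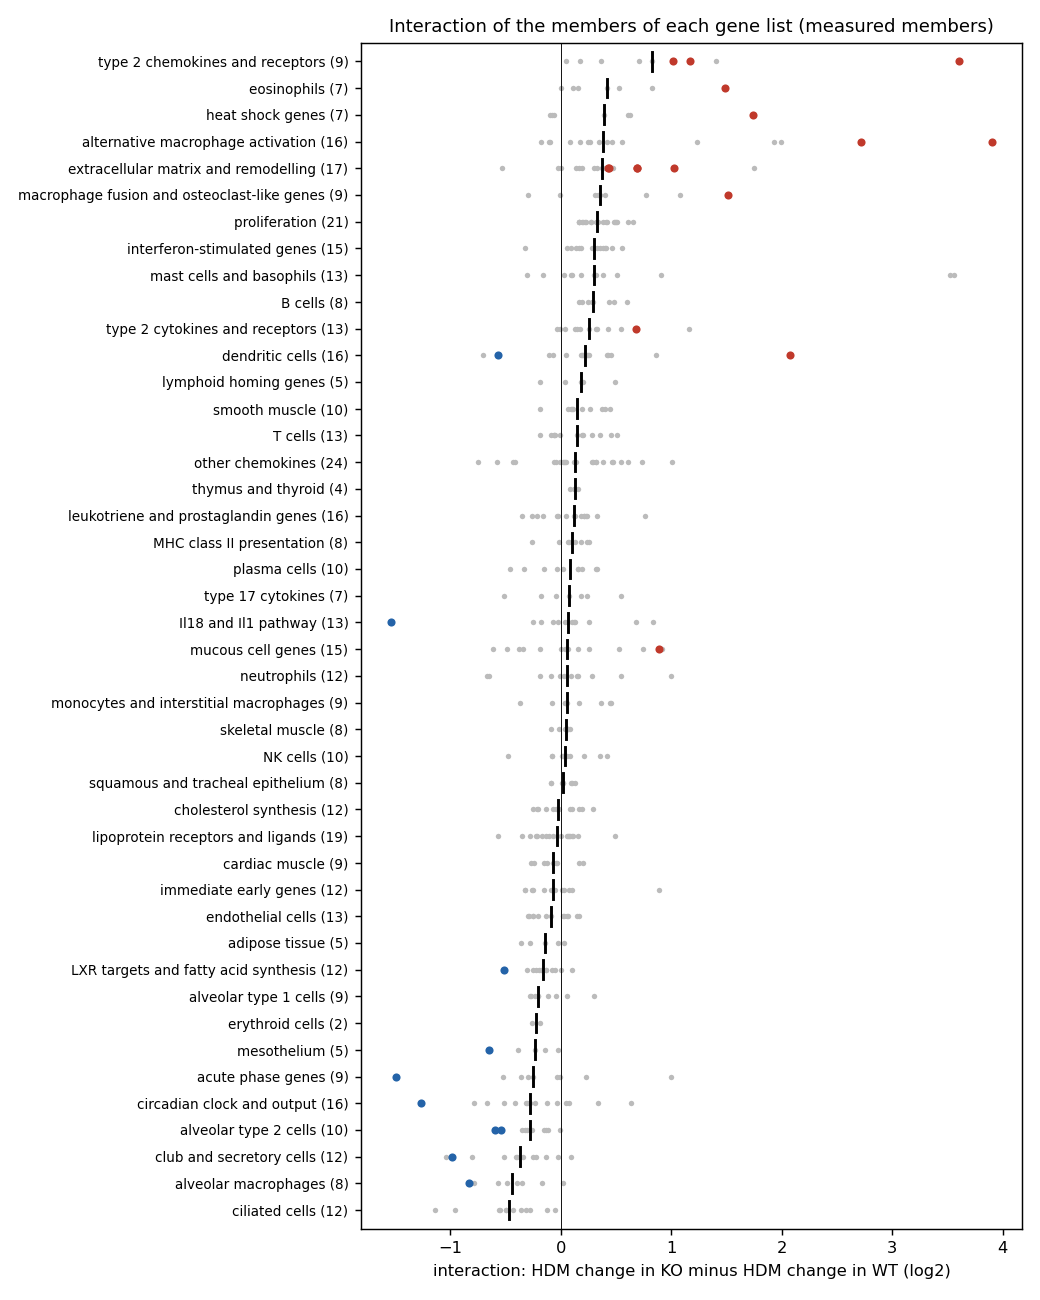
Interaction (x axis, log2) of each measured member of 44 gene lists (y axis, number measured in brackets), ordered by the median, which is the black bar. Red and blue points passed higher and lower, and grey points did not pass. Type 2 chemokines and receptors have the highest median (0.82) and ciliated cells the lowest (-0.47). The lists were chosen with earlier results of these data known.

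Over both genotypes, 5010 genes (25.1%) passed for a mean HDM change. For 4829 of these (96.4%) the 95% interval of the interaction lay within -1 to 1, and for 98.1% of all genes. This bound is wide beside the median SE of 0.10 and does not show that the genotypes responded alike: 47 of the 4829 are among the 160 genes that passed, such as Msln (interval -0.84 to -0.47). The genes with the largest mean changes inside the bound are given with their intervals. Retnlg, a resistin-like gene of neutrophils, rose by 1.59 in WT and by 2.14 in KO (interaction 0.54, 95% interval 0.22 to 0.87). Tnip3, an inhibitor of NF-kappa-B signalling, rose by 1.34 and 1.75 (interaction 0.40, 95% interval -0.09 to 0.89), and coagulation factor F5 rose by 1.06 and 1.46 (0.40, 95% interval 0.01 to 0.79). The gel-forming mucin Muc5ac rose by 1.42 and 1.23 (-0.19, 95% interval -0.79 to 0.42). The neutrophil attractant Cxcl5 fell by 1.55 in WT and by 1.23 in KO (0.32, 95% interval -0.04 to 0.68). These bounds leave room for differences of up to 2-fold.

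In the lists of tissue that a dissected lung may carry along, 0 genes passed. Of 9 cardiac muscle genes 2 had a positive interaction (median -0.07), of 8 skeletal muscle genes 6 (0.05), of 5 adipose genes 1 (-0.14), of 8 squamous and tracheal genes 6 (0.02) and of 4 thymus and thyroid genes 4 (0.12). The cardiac list had the largest median difference between genotypes of all lists within saline (KO minus WT -0.44), and it was -0.49 within HDM. The 12 neutrophil genes had a median of 0.06, the 10 NK cell genes 0.04, the 13 T cell genes 0.14, the 10 plasma cell genes 0.08 and the 13 endothelial genes -0.09, and 0 passed. The median SE of an interaction was 0.10, against 0.07 for the HDM change within WT, since it draws on the spread of 4 groups.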

How the data were processed

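The deposited values are log2 expression values, 1 per probe set and array, which the authors obtained by RMA in Affymetrix Expression Console, per the submitters' processing notes (versions not given in the sources used here). Of 35556 probe sets, 21789 had 1 gene symbol (21698 matched the GRCm38.p6 table by gene ID), 1621 several and 12146 none. For 999 genes the probe set with the highest mean was kept. All 16 arrays were fitted with limma 3.58.1 in R 4.3.3 (4 group means, 12 residual degrees of freedom, eBayes), and the same model was also tested on simulated data. Tests were two-sided, with Benjamini-Hochberg adjustment over 19938 genes.

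The named genes were Vldlr, the 12 largest rises and falls that passed (without predicted genes, clones, small RNAs and receptor segments), the 4 largest opposite responses, up to 4 members per list (filled to 2 by p), the 6 largest responses with the 95% interval within -1 to 1, and Apoe, Lrp8, Ccl11, Ccl24, Ccl17 and Ccl22. Of these a subset is described. The members, the 44 lists and the alternatives were chosen with earlier results of these data known. The alternatives were other normalization, filters, variance models, array weights, a replicate block, a clock covariate and left-out arrays. Precision is limited by the number of arrays.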

Additional observations from a re-analysis of the deposited data

Results flagged for a closer look

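In both genotypes the same contrast was taken, HDM against saline, and its difference between them was tested as the interaction: 71 genes had a higher and 89 a lower HDM change in KO.

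Single arrays that lay far from the other 3 of their group were found in 22 of 552 groups examined, where chance alone gives about 1 in 20. In KO HDM, array 4 stood apart in Klhl38 (9.95), Chst4 (8.28) and Hopx (11.79), array 3 in Thbs1 (12.72) and Lrg1 (11.31), array 2 in Mir380 (6.88) and array 1 in Dsg3 (7.10). In WT HDM, array 1 was low in Fetub (8.93), array 2 was high in Dnajb1 (9.99) and low in Cd22 (9.12), and array 4 was low in Ckm (8.61). In KO saline, array 4 stood apart in Cyp2e1 (10.42), Chil3 (11.39) and Gzmb (9.44), array 2 in Il23r (8.40) and Lbp (12.56), and array 1 in Cav1 (12.77) and Dlk1 (9.22). In WT saline, array 1 was low in F5 (8.35), array 3 low in Lbp (12), and array 4 was low in Madcam1 (8.07) and high in Col6a2 (10.25). All are log2 levels.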

How the results depend on the processing

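The 160 calls (71 higher, 89 lower) kept their sign in every alternative in which they were tested. They were chosen on these same arrays, so the kept signs are no separate support. The number of calls moved. Array weights gave 680 (339 higher, 341 lower), the replicate block 258 (104, 154), and a required size of 1 gave 27 (17, 10). Without WT saline 2 and 3 the count was 12 (8, 4), and with the clock covariate 10 (7, 3). Quantile normalization gave 214 (96, 118), equal array medians 165, genes above the 25th percentile of level 196, above the 50th 154, trended robust variances 141 and the mean of probe sets 154. Leaving out 1 array gave 41 to 1019 calls, 26 to 512 higher and 15 to 507 lower, with counts over 1.5 times away without WT saline 2 (54), 3 (41) or 4 (86), KO saline 1 (103), 2 (61), 3 (49) or 4 (45), KO HDM 1 (71), 2 (60), 3 (86) or 4 (1019), and WT HDM 1 (300), 2 (59), 3 (325) or 4 (42). The cause was not tested. Of 61 named genes that passed, 51 no longer passed without WT saline 2 and 3 and 53 with the clock covariate, while 60 still did with the replicate block. The main fit did not pair arrays by replicate number. Deviations of same-numbered arrays correlated from -0.28 to 0.33 in 24 pairs (median 0.04). In 72 pairs of different number they correlated from -0.39 to 0.39 (median -0.005), and 6 of 16 arrays correlated best with their own number. Whether the numbers stand for a pairing was not tested.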
